A study of Mus musculus with 24 samples.

Results

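Inflammasome sensors are cytosolic receptors that detect microbial products or cell damage and start the assembly of a caspase-1 activating complex. The genes described here are 10 mouse sensor genes of the NLR, NAIP, AIM2-like and pyrin families (Nlrp3, Nlrp1a, Nlrp1b, Nlrc4, Naip1, Naip2, Naip5, Naip6, Aim2 and Mefv), taken by symbol from the 52636 gene models that the files list. They are a list of names with no threshold on a measured value, drawn up with earlier results of these data known. The study measured polyA RNA of bone marrow-derived macrophages, primary macrophages grown from marrow precursors, in 24 libraries. WT libraries came from C57BL/6 mice and KO libraries from mice labelled Ninj1KO, and each genotype was left in media or given Pam3, the usual short name of a synthetic lipopeptide ligand of TLR1 and TLR2. This gave 4 groups of 6 libraries, WT_media, KO_media, WT_Pam3 and KO_Pam3. The sources used here do not give the dose and duration of Pam3, the age of the mice, the strain background of the KO mice or the part of Ninj1 that is deleted. Nothing in the labels ties a library to its own animal or culture. P-values therefore measure only the spread among these libraries, and that spread may be technical.

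Each sensor responds to its own class of signal. NLRP3 responds to membrane damage and ion flux and is known to need a priming signal, such as a Toll-like receptor ligand, that raises its transcript. NAIP proteins bind parts of bacterial flagella or secretion systems and then engage NLRC4, AIM2 binds double-stranded DNA, and NLRP1 proteins are triggered by cleavage and degradation. Active sensors lead through the adaptor ASC and caspase-1 to gasdermin D pores, and NINJ1 acts downstream of them, in the rupture of the plasma membrane of dying cells.

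Counted reads per library ranged from 31302011 to 40663152. At that depth 3 counts, used here as the detection floor, equal 0.0738 to 0.0958 CPM, counts scaled to the library size after TMM normalization. Ninj1 reads were fewer but not absent in KO libraries, with 151 to 179 CPM in KO_media against 289 to 325 CPM in WT_media and 409 to 479 CPM in KO_Pam3 against 646 to 1145 CPM in WT_Pam3. All 10 macrophage markers, among them Csf1r, Adgre1 and Lyz2, were detected in every group, and their summed level ran from 26452 to 39241 CPM over the libraries. All 24 libraries had Xist, at 193 to 943.3 CPM of the library total, and 28 counts in all over 4 Y-linked genes. This goes against the label Male of the WT samples. Library WT_Pam3 replicate 5 stood apart. It held the lowest value of its group for 9 of the 10 sensors and for 34.8% of the 14435 genes tested, against 10.8% to 18.2% in the other WT_Pam3 libraries, and it held the highest Ninj1 value, 1145 CPM. WT_Pam3 replicate 5 also had the lowest Xist of all 24 libraries, 193 CPM of the library total, against 452.6 to 559.3 in the other WT_Pam3 libraries. Results that rest on this library are given below with and without it.

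Pam3 moved the sensors in both directions and by very different amounts. In WT, Mefv rose 29.9-fold, Nlrp3 23.8-fold, Aim2 2.11-fold and Naip2 1.56-fold. Naip6 was 2.0-fold lower, Naip5 2.57-fold, Nlrp1a 3.45-fold and Nlrp1b 38.8-fold lower. Nlrc4 stayed near its level in media, and Naip1 was close to the detection floor throughout. A gene was called where the p of edgeR's quasi-likelihood F-test, after Benjamini-Hochberg adjustment, was under 0.05. By this rule 8 of the 9 sensors tested were called in WT (4 higher, 4 lower) and 9 of 9 in KO (5 higher, 4 lower). Over all genes tested 84.8% were called in WT (40.6% higher, 44.2% lower) and 85% in KO (40.2% higher, 44.8% lower), so the number of sensors called is close to the background. By at least 2-fold, 18.2% of all genes rose and 25.1% fell in WT, and 17.9% rose and 25.3% fell in KO. The groups did not overlap for 8 of 9 sensors in WT and 9 of 9 in KO, where all genes gave 68.8% and 75.7%. In this bulk RNA, fewer cells of a type and less RNA per cell cannot be told apart.

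**Figure D1:**
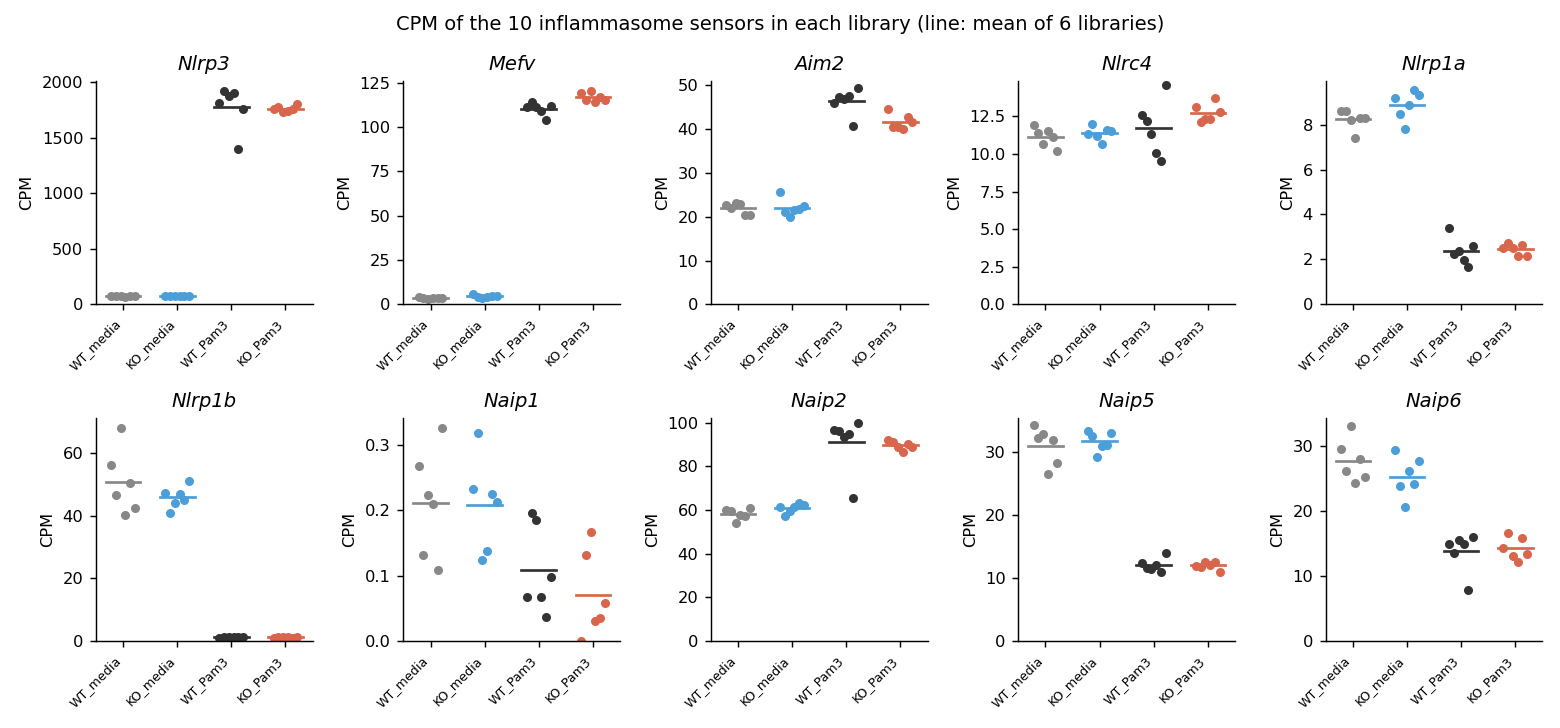
CPM (y axis, from 0) of each of the 10 sensors in each library, by group (x axis), where a point is a library and a line the mean of 6 libraries. Nlrp3 and Mefv lie far higher and Nlrp1b far lower in all 12 Pam3 libraries than in the 12 media libraries, and WT_Pam3 replicate 5 is the lone low point of its group for Nlrp3 (1398 CPM) and Naip2 (65.5 CPM).

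Nlrp3 (ENSMUSG00000032691, GRCm38 chr11:59541568-59566956, plus strand) is the sensor most used in studies of primed macrophages. Its lowest, median and highest values were 71.0, 74.9 and 76.1 CPM in WT_media, 71.6, 75.2 and 79.3 in KO_media, 1398, 1847 and 1918 in WT_Pam3, and 1734, 1759 and 1803 in KO_Pam3. Every Pam3 library was far above every media library, and the genotypes overlapped in each condition. The edgeR log2 fold change with Pam3 was 4.58 (SE 0.0608, adjusted p = 2.04e-29) in WT, which is 23.8-fold, and 4.55 (SE 0.0607, adjusted p = 2.37e-29) in KO, which is 23.5-fold. Ordered by rise, Nlrp3 held place 251 of 14435 genes in WT and place 244 in KO. Without WT_Pam3 replicate 5, the WT value was 4.64.

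Mefv (ENSMUSG00000022534, chr16:3707218-3718097, minus strand) encodes pyrin. Its values were 3.17, 3.60 and 4.42 CPM in WT_media, 3.81, 4.41 and 5.88 in KO_media, 104, 111 and 114 in WT_Pam3, and 114, 116 and 120 in KO_Pam3, as lowest, median and highest. Mefv thus went from a low level to one within the range of the other well-expressed sensors. The edgeR log2 rise was 4.90 (SE 0.0733, adjusted p = 2.31e-28), or 29.9-fold, in WT and 4.66 (SE 0.0717, adjusted p = 4.34e-28), or 25.3-fold, in KO. These are places 216 and 233 by rise among the 14435 genes. By limma on log2(RPKM + 1), which understates the change of low genes, the rise was 3.98 in WT and 3.89 in KO.

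Aim2 (ENSMUSG00000037860, chr1:173350879-173466040, plus strand) encodes the DNA-binding sensor. It had 20.3, 22.3 and 23.2 CPM in WT_media, 19.9, 21.5 and 25.6 in KO_media, 40.7, 47.0 and 49.4 in WT_Pam3, and 40.0, 41 and 44.6 in KO_Pam3. Media and Pam3 libraries did not overlap in either genotype. The edgeR log2 rise was 1.08 (SE 0.0545, adjusted p = 2.12e-16) in WT and 0.92 (SE 0.0545, adjusted p = 7.91e-15) in KO. With scaling by library size only, which shifts the median of all genes to -0.58 in WT and -0.56 in KO, Aim2 still rose, by 0.56 and 0.44. With the TMM scaling used here those medians were -0.055 and -0.074.

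Nlrc4 (ENSMUSG00000039193, chr17:74425438-74459142, minus strand) encodes the partner of all NAIP proteins. It measured 10.2, 11.2 and 11.9 CPM in WT_media, 10.7, 11.4 and 12 in KO_media, 9.51, 11.8 and 14.6 in WT_Pam3, and 12.1, 12.6 and 13.7 in KO_Pam3. The WT groups overlapped, and the KO groups only just did not, with 12 CPM as the highest KO_media and 12.1 CPM as the lowest KO_Pam3 value. The edgeR log2 difference was 0.08 (SE 0.0712, adjusted p = 0.308) in WT and 0.16 (SE 0.0703, adjusted p = 0.0385) in KO, and without WT_Pam3 replicate 5 it was 0.13 (adjusted p = 0.0452) in WT. The direction depends on the scaling: with library size only, Nlrc4 was lower with Pam3, by -0.44 (edgeR adjusted p = 4.31e-06) in WT and -0.32 (adjusted p = 0.000217) in KO.

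**Figure D2:**
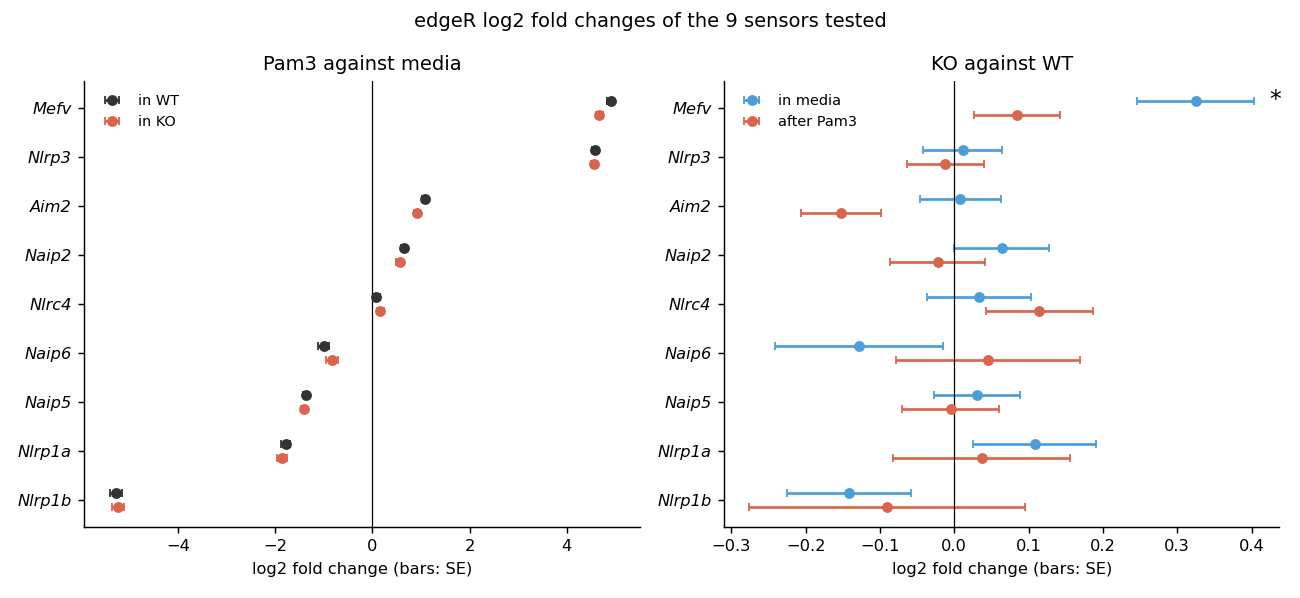
edgeR log2 fold changes (x axis, bars are SE) of the 9 sensors tested (y axis), for Pam3 against media in each genotype on the left and KO against WT in each condition on the right, on its own narrower scale, where an asterisk marks an adjusted p under 0.05. The WT and KO responses to Pam3 lie side by side for each sensor, from 4.90 for Mefv to -5.28 for Nlrp1b in WT, and Mefv in media is the only difference between genotypes that passed the test.

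The paralogs Nlrp1a and Nlrp1b lie next to each other on the minus strand of chromosome 11. Nlrp1b (ENSMUSG00000070390, chr11:71153102-71230733) encodes the sensor cleaved by anthrax lethal factor in susceptible mouse strains, and Nlrp1a (ENSMUSG00000069830, chr11:71092236-71144704) its less studied neighbour. Of all 50-base windows in their GENCODE M21 transcripts, 2.07% for Nlrp1a and 1.45% for Nlrp1b also occur in a transcript of another gene, so unique alignment separates nearly all of their reads. Nlrp1b was the sensor with the largest fall. It had 40.1, 48.5 and 67.9 CPM in WT_media, 40.9, 45.9 and 51.0 in KO_media, 1.11, 1.32 and 1.41 in WT_Pam3, and 1.15, 1.23 and 1.31 in KO_Pam3. In raw counts this is 1820 to 2742 reads per library in WT_media and 33 to 42 in WT_Pam3, with 1764 to 2168 and 33 to 43 in the KO groups, so the Pam3 values rest on few reads but lie above the floor of 3. By edgeR the log2 fall was -5.28 (SE 0.123, adjusted p = 4.77e-24), or 38.8-fold lower, in WT and -5.23 (SE 0.123, adjusted p = 5.85e-24), or 37.5-fold lower, in KO. Counted from the largest fall, these are places 99 and 100 among 14435 genes. The size of the Nlrp1b fall depends on the pseudocount: by limma it was -4.65 in WT and -4.58 in KO on log2(RPKM + 0.1), and -2.79 and -2.69 on log2(RPKM + 1), where the pseudocount exceeds every Pam3 value.

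Nlrp1a fell less than its neighbour. Its values were 7.42, 8.27 and 8.60 CPM in WT_media, 7.82, 9.01 and 9.54 in KO_media, 1.66, 2.31 and 3.40 in WT_Pam3, and 2.14, 2.52 and 2.71 in KO_Pam3. The edgeR log2 fall was -1.79 (SE 0.101, adjusted p = 2.53e-15) in WT and -1.86 (SE 0.0985, adjusted p = 6.45e-16) in KO. By limma on log2(RPKM + 1) the Nlrp1a fall was -0.87 in WT and -0.91 in KO. By RPKM, reads scaled by gene length and library size, which allows levels of different genes to be compared, Nlrp1b was 4.16 ± 0.789 times Nlrp1a in WT_media and 0.392 ± 0.103 times in WT_Pam3 (SD, n = 6). In KO the ratio was 3.51 ± 0.243 in media and 0.341 ± 0.0481 after Pam3 (SD, n = 6). The order of the pair therefore turned over with Pam3 in every library of both genotypes, since the ratio was at least 3.19 in each media library and at most 0.516 in each Pam3 library.

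The bases before the start sites of this pair are shown because the genes fell together but by different amounts. The RefSeq promoter windows on GRCm38.p6, from 250 bases before to 50 after the annotated start, were identical at 84.7% of positions after alignment of Nlrp1a with the first of 2 Nlrp1b starts. In 58 pairs of windows of unrelated sensors, or of 2 starts of a sensor, the figure was 36.7% to 61.3%. The 250 bases before each start follow, 5′ to 3′ on the gene's strand (minus), at chr11:71144705-71144954 for Nlrp1a and chr11:71230734-71230983 for Nlrp1b. Capitals mark the longest run the pair shares, 37 bases at positions -39 to -3 of Nlrp1a and -49 to -13 of Nlrp1b, counted from the start.
Nlrp1a: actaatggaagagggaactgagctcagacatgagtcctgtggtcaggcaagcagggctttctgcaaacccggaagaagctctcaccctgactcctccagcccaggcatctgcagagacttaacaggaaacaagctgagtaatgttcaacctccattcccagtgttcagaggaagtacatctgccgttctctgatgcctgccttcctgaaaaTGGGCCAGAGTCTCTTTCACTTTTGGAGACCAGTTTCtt
Nlrp1b: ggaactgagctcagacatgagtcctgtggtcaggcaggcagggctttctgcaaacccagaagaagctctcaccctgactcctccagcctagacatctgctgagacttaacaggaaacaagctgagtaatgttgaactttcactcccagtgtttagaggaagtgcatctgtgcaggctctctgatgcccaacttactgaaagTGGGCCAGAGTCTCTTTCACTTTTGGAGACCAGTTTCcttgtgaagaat

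The 4 NAIP genes lie in a row on the minus strand of chromosome 13, 50.9 Mb from Ninj1, and they moved apart with Pam3. Naip2 (ENSMUSG00000078945, chr13:100144063-100202092) encodes the receptor for the inner rod protein of type III secretion systems. Its values were 54.1, 58.6 and 60.7 CPM in WT_media, 57.3, 61.2 and 63.3 in KO_media, 65.5, 95.2 and 99.9 in WT_Pam3, and 86.3, 89.5 and 92.2 in KO_Pam3. All Pam3 libraries exceeded all media libraries of their genotype, WT_Pam3 replicate 5 by the smallest margin. The edgeR log2 rise was 0.64 (SE 0.0645, adjusted p = 5.45e-10) in WT, 0.73 without that library, and 0.56 (SE 0.0644, adjusted p = 8.27e-09) in KO. With library size only, the rise no longer passed the test, at 0.12 (edgeR adjusted p = 0.0783) in WT and 0.08 (adjusted p = 0.273) in KO.

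Naip5 (ENSMUSG00000071203, chr13:100211739-100246323) and Naip6 (ENSMUSG00000078942, chr13:100281121-100317674) encode the flagellin receptors, and both fell. Naip5 had 26.5, 32 and 34.2 CPM in WT_media, 29.2, 31.7 and 33.2 in KO_media, 10.9, 11.8 and 14 in WT_Pam3, and 11.0, 12 and 12.6 in KO_Pam3. Naip6 had 24.3, 27.1 and 33.1 CPM in WT_media, 20.7, 25.2 and 29.4 in KO_media, 7.89, 15.0 and 16 in WT_Pam3, and 12.2, 13.9 and 16.7 in KO_Pam3. For each gene the media and Pam3 libraries did not overlap in either genotype. The edgeR log2 fall of Naip5 was -1.36 (SE 0.0624, adjusted p = 2.26e-17) in WT and -1.40 (SE 0.0621, adjusted p = 1.10e-17) in KO. The fall of Naip6 was -1.0 (SE 0.119, edgeR adjusted p = 1.41e-08) in WT, -0.88 without WT_Pam3 replicate 5, and -0.83 (SE 0.118, adjusted p = 3.57e-07) in KO.

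Naip1 (ENSMUSG00000021640, chr13:100407764-100452869), which encodes the receptor for the needle protein, was barely detected. Its reads per library were 5 to 14 in WT_media (54 in all), 5 to 14 in KO_media (53), 1 to 6 in WT_Pam3 (19) and 0 to 5 in KO_Pam3 (13). It was the sensor that did not pass the filter on low counts. Only 2 WT_media libraries, 1 KO_media library and no Pam3 library reached 0.277 CPM of the library total. The ratio of summed levels after Pam3 to those in media was 0.524 in WT (exact 95% interval 0.293 to 0.898) and 0.328 in KO (0.164 to 0.611), where the intervals cover counting error only. In the edgeR fit without the filter, the log2 difference of Naip1 was -0.97 (SE 0.427, adjusted p = 0.0571) in WT, not called, and -1.57 (SE 0.462, adjusted p = 0.00378) in KO, called.

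Naip2 held most of the summed NAIP RPKM in media and a larger share after Pam3. Its share was 54.5% ± 3.0 in WT_media, 56.1% ± 1.77 in KO_media, 81.2% ± 0.728 in WT_Pam3 and 80.8% ± 0.832 in KO_Pam3 (SD, n = 6). The ratio of Naip2 to Naip5 was 2.04 ± 0.232 in WT_media, 2.07 ± 0.118 in KO_media, 8.13 ± 0.934 in WT_Pam3 and 8.04 ± 0.461 in KO_Pam3 (SD, n = 6), and no media library reached the lowest Pam3 value, 6.44. The summed RPKM of the 4 NAIP genes moved far less, with 19.6 ± 0.749 and 21.0 ± 2.93 in the WT groups and 19.9 ± 0.839 and 20.8 ± 0.625 in the KO groups (SD, n = 6). A ratio within a library does not depend on the scaling between libraries. The NAIP genes share much sequence: 36.9% of the 50-base transcript windows of Naip5, 31.5% of Naip1, 21.5% of Naip6 and 19.1% of Naip2 occur in another gene's transcript, and reads from these windows are absent from unique counts. Naip5 shared the most with Naip6 (22.3% of its windows), and the values of these genes are uncertain to that extent.

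**Figure D3:**
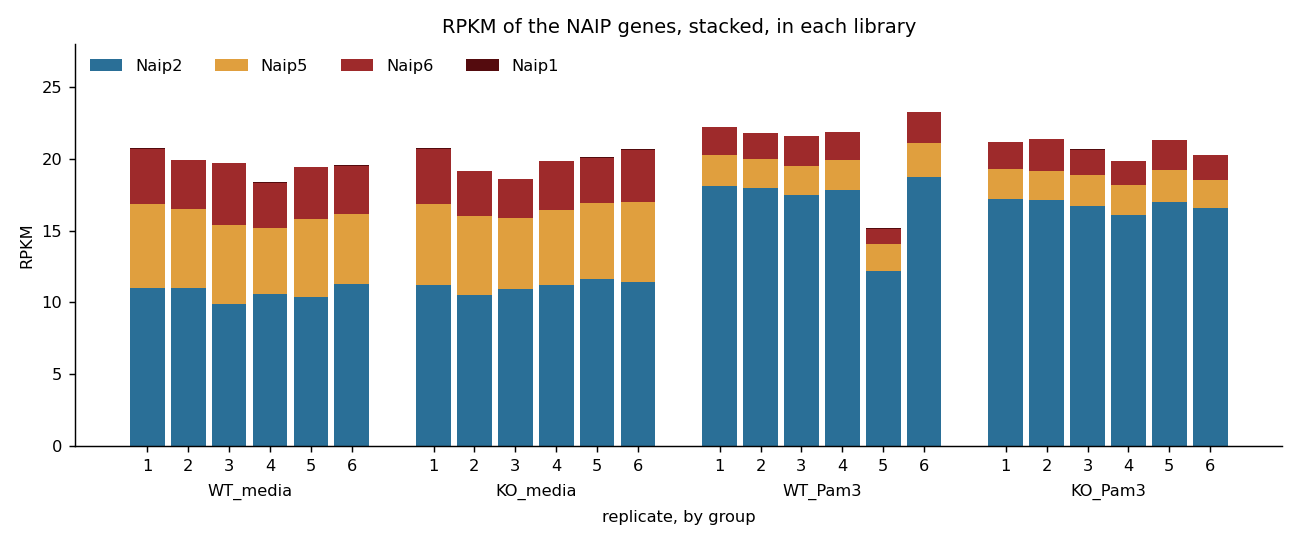
RPKM (y axis, from 0) of Naip2, Naip5, Naip6 and Naip1 stacked in each of the 24 libraries (x axis, replicate number by group). The total stays between 15.2 and 23.3 RPKM while the Naip2 part grows and the Naip5 and Naip6 parts shrink in the Pam3 groups, and WT_Pam3 replicate 5 has the lowest total, 15.2 RPKM.

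The bases before the start sites of Naip2 and Naip5 are shown because these neighbours moved in opposite directions although their windows were the most alike of the NAIP pairs compared here. Their RefSeq windows were 68.0% identical, followed by Naip1 with Naip2 at 61.7%, and the other 4 NAIP pairs were at 48.0% to 56.3%. The 250 bases before the start follow, 5′ to 3′ on the minus strand, at chr13:100202123-100202372 for Naip2 and chr13:100247337-100247586 for Naip5 (GRCm38.p6). Capitals mark the longest shared run, 34 bases at positions -39 to -6 of Naip2 and -46 to -13 of Naip5. Naip6 shared no run longer than 8 bases with Naip2 or 7 with Naip5. The RefSeq starts differ from the ends of the GENCODE genes given above: the Naip6 window lies within its gene and the Naip5 window outside its gene. Windows at other starts were not compared.
Naip2: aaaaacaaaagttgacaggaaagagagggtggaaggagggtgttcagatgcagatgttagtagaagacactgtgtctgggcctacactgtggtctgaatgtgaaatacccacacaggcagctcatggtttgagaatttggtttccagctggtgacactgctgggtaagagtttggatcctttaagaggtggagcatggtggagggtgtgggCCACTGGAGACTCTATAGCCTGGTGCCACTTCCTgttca
Naip5: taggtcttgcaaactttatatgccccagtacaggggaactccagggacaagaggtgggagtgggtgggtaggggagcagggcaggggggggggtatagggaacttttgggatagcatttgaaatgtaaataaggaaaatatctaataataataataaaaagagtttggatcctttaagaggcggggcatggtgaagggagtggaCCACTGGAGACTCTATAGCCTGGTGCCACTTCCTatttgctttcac

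The 12 RefSeq windows that match the 10 sensors were searched on both strands for 4 motifs. These were NF-kB in its degenerate consensus form (in 4.53% of all 32544 windows of this length), AP-1 (TGANTCA, 7.79%), CRE (TGACGTCA, 1.80%) and PU.1 (GAGGAA, 28.1%), whose letters do not contain one another. The NF-kB form matched in 2 windows, the first Nlrp3 start (position -186, opposite strand) and Naip5 (position -218, same strand), so it occurred both before a gene that rose and before one that fell. A narrower NF-kB form, searched first, had no match in the windows of the sensors. The PU.1 letters occurred in 4 of 12 windows (33.3%): the second Nlrp3 start, Nlrp1a, the first Nlrp1b start and Aim2. The Aim2 window, chr1:173420354-173420653, lies within the GENCODE gene given above and not at its start. The AP-1 and CRE letters had no match, which says only that these letters are not in these windows, and a match is a description, not a site in use.

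Per length, the order of the sensors changed with Pam3. In WT_media, mean RPKM ran from Nlrp3 (16.4) through Naip2 (10.7), Nlrp1b (7.32), Aim2 (6.86), Naip5 (5.29), Naip6 (3.61), Nlrc4 (2.58), Nlrp1a (1.76) and Mefv (0.999) to Naip1 (0.0339). Among neighbours in that order, only Nlrp1b and Aim2 overlapped. In KO_media the order was the same but for Aim2 (6.88) above Nlrp1b (6.62), which overlapped, as did Naip6 (3.30) and Nlrc4 (2.64). The order is not corrected for sequence shared between genes, such as 36.9% of the windows of Naip5 against 0.742% of Aim2. The NAIP genes may therefore stand higher than placed here and after Pam3.

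After Pam3, Mefv moved from place 9 to place 2 and Nlrp1b from place 3 or 4 to place 9. WT_Pam3 ran from Nlrp3 (398 ± 44.8 RPKM; SD, n = 6) through Mefv (30.5), Naip2 (17.0), Aim2 (14.8), Nlrc4 (2.78), Naip5 (2.10), Naip6 (1.84), Nlrp1a (0.518) and Nlrp1b (0.192) to Naip1 (0.0178). Naip2 overlapped with Aim2, Nlrc4 with Naip5, and Naip5 with Naip6. KO_Pam3 had the same order, from Nlrp3 at 394 ± 5.86 RPKM (SD, n = 6) and Mefv at 32.3 RPKM down to Nlrp1b at 0.180 and Naip1 at 0.0115 RPKM, and there only Naip5 and Naip6 overlapped. Nlrp3 alone made up 29.5% ± 1.09 of the summed RPKM of the 10 sensors in WT_media and 29.6% ± 0.638 in KO_media, and 85% ± 0.821 and 84.9% ± 0.345 after Pam3 (SD, n = 6). The sum itself was 55.5 and 55.6 RPKM in media and 468 and 464 RPKM after Pam3, in WT and KO.

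**Figure D4:**
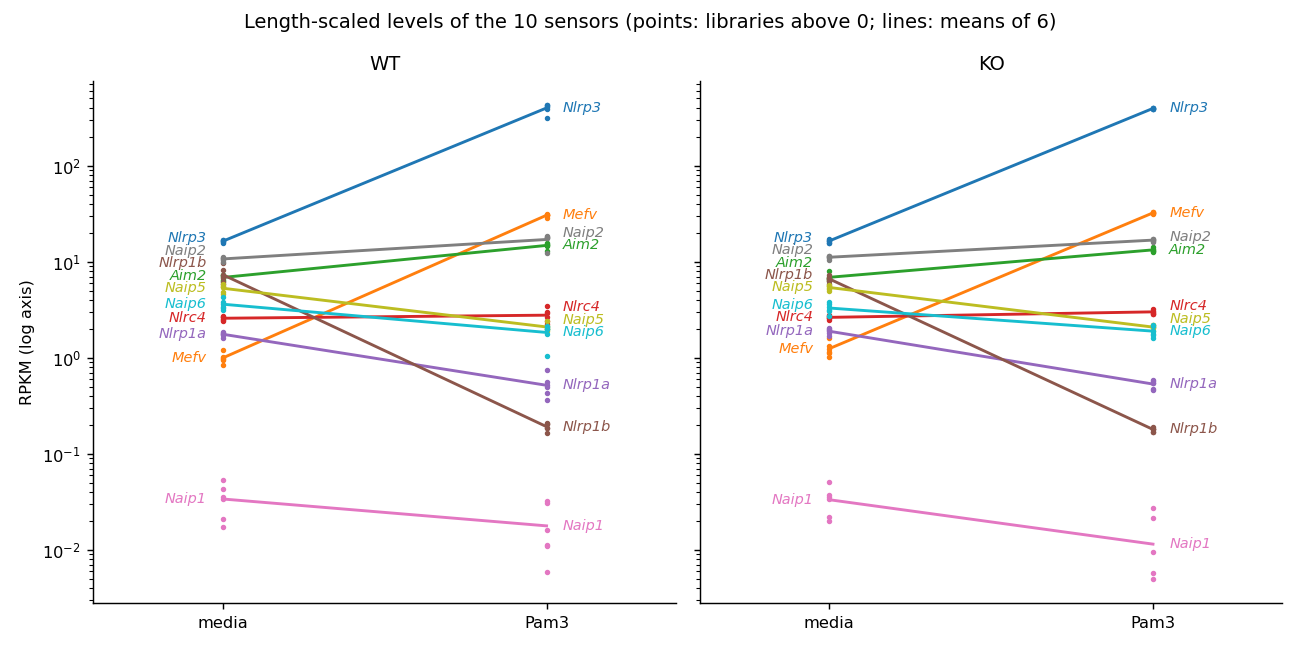
RPKM of each sensor (y axis, log scale) in media and after Pam3, for WT on the left and KO on the right, where points are libraries above 0 and lines join means of 6 libraries. The line of Mefv rises from 0.999 to 30.5 RPKM in WT and crosses that of Nlrp1b, which falls from 7.32 to 0.192 RPKM.

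The comparison of genotypes asks whether loss of NINJ1, which acts after the sensors, goes with other levels of the sensor transcripts. In media, 1 of 9 sensors tested was called, Mefv, where 3.03% of all genes were called. No sensor had groups that did not overlap, against 4.27% of all genes. The KO minus WT log2 difference of Mefv was 0.32 (SE 0.0788, edgeR adjusted p = 0.0209), from means of 3.68 ± 0.414 CPM in WT_media and 4.61 ± 0.732 CPM in KO_media (SD, n = 6). The highest WT library (4.42 CPM) exceeded 3 of the 6 KO libraries. The log2 difference stayed between 0.25 and 0.38 in the 24 fits that each leave out 1 library, and the call held in 21 of them. Fits without a Pam3 library keep every media library, and the call was lost only in fits without a media library. The adjusted p was 0.0628 without WT_media replicate 3, 0.0516 without KO_media replicate 1 and 0.0514 without KO_media replicate 6. The other 8 sensors had edgeR adjusted p from 0.528 to 0.981, with log2 differences from -0.14 (Nlrp1b, SE 0.0836) to 0.11 (Nlrp1a, SE 0.0826).

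Other lists moved with genotype in the same media libraries. Of 30 interferon-stimulated genes, 24 were higher and 0 lower in KO_media (median log2 difference 0.57, all genes -0.002), and their summed level was 2450 to 5229 CPM in KO_media against 1897 to 2305 CPM in WT_media. KO_media replicate 1 had the highest interferon-stimulated sum (5229 CPM), the highest Mefv (5.88 CPM) and the highest Aim2 (25.6 CPM). Of 15 granulocyte markers tested, 5 were higher and 0 lower in KO_media (median 0.23). All 16 had reads in both media groups, and they summed to 271 to 300 CPM in KO_media against 241 to 257 CPM in WT_media. Of 8 monocyte markers, 6 were higher and 0 lower (median 0.50), with sums of 279 to 404 CPM in KO_media against 199 to 238 CPM in WT_media. Of 10 stromal and endothelial markers, 6 were higher and 0 lower (median 0.61), among them Col1a2 (0.75, edgeR adjusted p = 0.00372). All 10 had reads in both media groups, with sums of 63.2 to 106 CPM in KO_media against 50.2 to 59.6 CPM in WT_media. In the 24 fits that each leave out 1 library, the Col1a2 call was lost in 0. The other stromal and endothelial calls were lost in 5 to 8 of these fits each. Of 8 dendritic cell markers tested, Fscn1 (0.68) and Dpp4 (0.58) were higher and Itgax (-0.23) lower in KO_media, with sums over 10 markers of 23.7 to 25.8 against 21.1 to 25.7 CPM. The Itgax call was lost in 6 of the 24 fits without 1 library, those of Fscn1 and Dpp4 in 0. Both granulocytes and monocytes are known to express Mefv. The part of these lists in the Mefv difference was not tested.

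**Figure D5:**
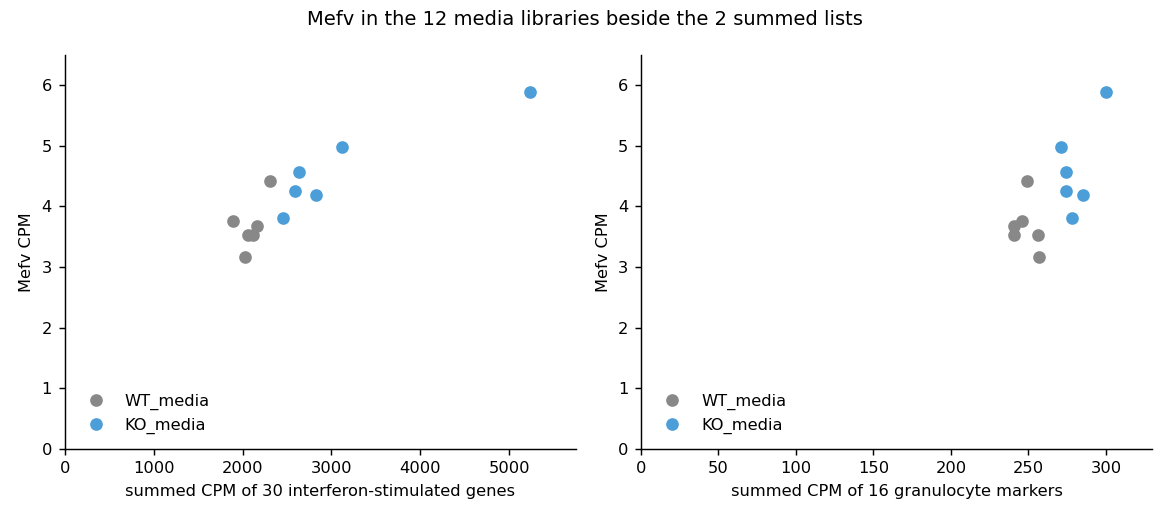
Mefv CPM (y axis, from 0) in the 12 media libraries against the summed CPM of 30 interferon-stimulated genes (left) and of 16 granulocyte markers (right), by genotype. KO_media replicate 1, at 5.88 CPM of Mefv, is also the highest library on both x axes (5229 and 300 CPM).

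After Pam3, no sensor was called between genotypes by edgeR, where 4.06% of all genes were called. At an unadjusted p under 0.05 there was 1 sensor, Aim2, and DESeq2 called 0 at an adjusted p under 0.05. Aim2 was lower in KO_Pam3 by -0.15 (SE 0.0535, edgeR adjusted p = 0.118), with means of 41.6 ± 1.75 CPM in KO_Pam3 against 46.2 ± 2.95 CPM in WT_Pam3 (SD, n = 6). WT_Pam3 replicate 5, at 40.7 CPM, was the WT library within the KO range. Without it, Aim2 (-0.19, edgeR adjusted p = 0.00828) and Naip2 (-0.10, adjusted p = 0.0416) were called lower in KO. Over all genes, that fit called 352 of 14566 higher and 826 lower. With all libraries, 189 of 14435 were called higher and 397 lower. Nlrp3 was not called with WT_Pam3 replicate 5 (-0.01, edgeR adjusted p = 0.937) or without it (-0.07, adjusted p = 0.149). Mefv was the sensor whose groups did not overlap (2.53% of all genes), at 117 ± 2.20 CPM in KO_Pam3 against 110 ± 3.45 CPM in WT_Pam3 (SD, n = 6), and its log2 difference of 0.08 (SE 0.0580, edgeR adjusted p = 0.499) did not pass the test.

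The interaction, the response to Pam3 in KO less that of WT, was called for 0 of 9 sensors by edgeR, where 0.762% of all genes were called, and for 0 by DESeq2. At an unadjusted p under 0.05 there were 2, Mefv (-0.24, SE 0.0978, edgeR adjusted p = 0.293) and Aim2 (-0.16, SE 0.0766, adjusted p = 0.398). Without WT_Pam3 replicate 5, Naip2 passed with -0.16 (edgeR adjusted p = 0.0266). Over all genes, that fit called 102 of 14566 higher and 442 lower, against 25 and 85 of 14435 with all libraries. For Nlrp3 the interaction was -0.02 (SE 0.0746, edgeR adjusted p = 0.912), and -0.08 (SE 0.0422, adjusted p = 0.356) without WT_Pam3 replicate 5. The interaction uses the same libraries as the responses above and is not further evidence on them.

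Many genes followed the same pattern over the 24 libraries, which mostly reflects the difference between media and Pam3. By Pearson's r of log2 CPM over these libraries, given as a description, 1163 of 12067 genes had an r of at least 0.99 with Nlrp3, 1006 with Mefv and 742 with Nlrp1b. The most alike were Tnfaip3 (0.9998), Acsl1 and Sept11 (both 0.9996) for Nlrp3, Gsap and Cd69 (both 0.9994) and Clec4e (0.9993) for Mefv, and Acox3 (0.9986), Phka2 and Pnpla7 (both 0.9985) for Nlrp1b. For Aim2 they were Setdb2 (0.9935), Zc3hav1 (0.9916) and Stard4 (0.9915), and for Naip2 Mob1a (0.99), Tgs1 (0.9887) and Stag1 (0.9886). Dock8 (0.9932) led for Nlrp1a, Ago4 (0.9946) for Naip5, Mbd5 (0.9789) for Naip6 and Rab14 (0.798) for Nlrc4.

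The other genes of the pathway are given by list. Between genotypes, each count of calls stands against 3.03% of all genes in media, 4.06% after Pam3 and 0.762% for the interaction. With Pam3 it stands against 84.8% of all genes called in WT and 85% in KO. The number called with Pam3 in a list is therefore no result by itself. Of 10 adaptor and effector genes, 8 rose and 1 fell in each genotype (median log2 difference 2.11 in WT and 1.89 in KO, all genes -0.055 and -0.074). The cytokine genes Il1b (12.93 in WT, 12.24 in KO) and Il1a (8.97 and 9.70) led, with Casp4 (3.90 and 3.52), the sensor of cytosolic lipopolysaccharide, and Il18 (3.72 and 3.67). In media, 2 of these 10 were lower in KO, Ninj1 itself (-0.88, edgeR adjusted p = 7.33e-07) and Il1a (-0.58, adjusted p = 0.0458), and after Pam3 only Ninj1 was (-0.92, adjusted p = 4.05e-07). The Il1a call in media was lost in 19 of the 24 fits that each leave out 1 library. The interaction was called for 1 of the 10, Il1a (0.73, edgeR adjusted p = 0.0471).

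Of 18 genes of TLR2 signalling, 16 rose and 2 fell in WT and 16 rose and 1 fell in KO (medians 2.75 and 2.61). Tlr2, the receptor of Pam3, rose by 3.52 in WT and 3.28 in KO. In media Tlr2 (0.21, edgeR adjusted p = 0.00321) and the adaptor gene Myd88 (0.19, adjusted p = 0.0114) were higher in KO. In the fit without WT_Pam3 replicate 5, 6 of the 18 were higher. Over all genes, that fit called 658 of 14566 higher in KO_media and 616 lower, against 277 and 161 of 14435 with all libraries. After Pam3, 0 of 18 were called between genotypes by edgeR, with 1 at an unadjusted p under 0.05, and 0 by DESeq2. The interaction was called for 1 of the 18, Tlr2 (-0.24, edgeR adjusted p = 0.0396).

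Of 23 other NLR family genes, 21 were in the files and 7 passed the filter on low counts. In WT 4 rose and 3 fell with Pam3, and in KO 3 rose and 3 fell. Nod2 (4.56 and 4.37) and Nod1 (2.67 and 2.45), receptors of bacterial peptidoglycan fragments, rose, while Nlrc3 fell by -3.86 and -3.69. Between genotypes, Nlrc3 was lower in KO_media (-0.19, edgeR adjusted p = 0.0199), and after Pam3 Nod1 (-0.21, adjusted p = 0.0146) and Ciita (-0.35, adjusted p = 0.0445) were lower and Nlrx1 (0.24, adjusted p = 0.0390) higher. Of the 24 fits that each leave out 1 library, the call was lost in 21 for Ciita, 8 for Nlrx1, 2 for Nlrc3 (without WT_media replicate 3 or KO_media replicate 5) and 0 for Nod1.

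Of 13 other AIM2-like receptor and DNA sensing genes tested (17 in the list), 12 rose and 1 fell with Pam3 in WT and 11 rose and 1 fell in KO (medians 2.27 and 1.58), with Ifi205 at 7.11 and 6.39, while Aim2 rose by 1.08 and 0.92. In media 9 of the 13 were higher in KO and 0 lower (median 0.59, with 3.03% of all genes called), led by Mndal (1.31, edgeR adjusted p = 0.00057) and Ifi206 (0.97, adjusted p = 0.00232), while Aim2 differed by 0.01 (SE 0.0548). After Pam3, Mndal was higher in KO (1.03, edgeR adjusted p = 0.0033), and the interaction was called for Ifi206 (-1.04, adjusted p = 0.0382) and Ifi204 (-0.68, adjusted p = 0.0496). The Ifi200 genes in this list are close paralogs that can share reads, while Zbp1, Tmem173 and Cgas are not. The difference between Aim2 and this list was not tested.

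Of 18 regulators of NLRP3 tested, 10 rose and 6 fell with Pam3 in WT and 9 rose and 6 fell in KO (medians 0.34 in each). Gbp5 (6.94 and 6.36) and Tnfaip3 (5.03 and 5.11), which encodes the deubiquitinase A20, rose. P2rx7 (-3.47 and -3.60), the ATP-gated channel that triggers NLRP3, and Txnip (-1.99 and -1.98) fell. Between genotypes Fbxl2 was lower in KO in media (-0.22, edgeR adjusted p = 0.0438) and after Pam3 (-0.25, adjusted p = 0.0310), and Gbp5 was higher in media (0.48, adjusted p = 0.0496). Of the 24 fits without 1 library, the call was lost in 17 and 13 for Fbxl2 and in 20 for Gbp5.

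Of 17 regulators of pyrin, NLRC4 and NLRP1 tested, 12 rose and 4 fell with Pam3 in WT and 13 rose and 4 fell in KO (medians 0.69 and 0.75). Among those acting on NLRC4 and its partners, Prkcd, a kinase of NLRC4, rose by 1.96 and 2.07, and Irf8, a transcription factor known to support Naip gene expression, fell by -1.98 and -2.03. Pstpip2 (3.93 and 3.81) is related to the pyrin-binding PSTPIP1. In media 0 of 17 were called between genotypes by edgeR, with 0 at an unadjusted p under 0.05 and 0 by DESeq2, and after Pam3 Prkcd was higher in KO (0.12, edgeR adjusted p = 0.0159).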

How the data were processed

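RNA was extracted on columns with DNase digestion, and TruSeq RNA v2 libraries, which do not mark strand, were read as single-end 50 bp on a HiSeq4000, per the labels' protocols. Alignment was by GSNAP to GRCm38, per the submitters' processing notes, with versions and settings not given in the sources used here. The deposited files give counts of uniquely aligning reads for each gene model, which the authors did not normalize, per the file headers. They also give RPKM, to which the authors applied a size factor, per the file headers. Symbols and coordinates came from GENCODE M21 (52403 of 52636 models matched; the other 233 held 0.0196% of the reads). No exon of a sensor overlaps another gene's exon.

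Tests on the counts used edgeR 4.0.16 under R 4.3.3 (TMM, the quasi-likelihood F-test, and filterByExpr, which left 14435 genes), as 1 fit of all 24 libraries with a mean per group and no covariate. The biological coefficient of variation was 8.21%. P-values were adjusted by Benjamini-Hochberg over all genes tested within each comparison, with a threshold of 0.05. CPM and RPKM are given as mean ± SD or as lowest, median and highest of 6 libraries. RPKM compares genes and was tested only as an alternative, with limma 3.58.1 on log2(RPKM + 0.1) and log2(RPKM + 1). Other alternatives were DESeq2 1.42.0, other scalings, no filter, the groups compared alone, and each library left out. The edgeR step was tested on simulated data.

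The sensors and the lists were chosen with earlier results of these data known, so the lists are described by counts and medians and were not tested as sets. The 10 sensors were always named; from each list up to 4 genes with the smallest adjusted p in a comparison could be named, and for sensors with a mean of at least 100 counts the 3 genes of highest Pearson r (log2 CPM, prior count 2), of which the first is printed for some. Replicate numbers follow the order of deposition. Promoter windows came from RefSeq on GRCm38.p6.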

Additional observations from a re-analysis of the deposited data

Results flagged for a closer look

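In 40 groups of 6 values (10 sensors in 4 groups), a library was set aside for a closer look when its gap to the nearest other library exceeded Dixon's critical value, 0.625 of the group's range. There were 5 such values, where chance gives about 1 in 20, or 2 of 40. In WT_Pam3 replicate 5, Nlrp3 was at 1398 CPM against 1758 to 1918 CPM in the other 5 libraries, Naip2 at 65.5 against 93.3 to 99.9 CPM, and Naip6 at 7.89 against 13.5 to 16 CPM. The same library had the highest Ninj1 of its group (1145 CPM against 646 to 810 CPM). In WT_media replicate 4, Nlrp3 was at 71.0 CPM against 74.4 to 76.1 CPM and Nlrp1a at 7.42 against 8.22 to 8.60 CPM.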

How the results depend on the processing

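Of 1386 values of single sensors under an alternative, 1369 kept their side of the threshold, 11 lost the call, 4 gained it and 2 changed direction with a call. Values called in neither fit could change sign and still count among the 1369. An example is Nlrp3 between genotypes after Pam3 (-0.012, alternatives from -0.072 to 0.037). The 2 that changed direction with a call were Nlrc4 with library size only, at -0.44 in WT and -0.32 in KO. The size of a change moved by over 1.5 times with limma on log2(RPKM + 1) for Mefv, Nlrp1a and Nlrp1b with Pam3 (in WT 3.98, -0.87 and -2.79, in KO 3.89, -0.91 and -2.69), and on log2(RPKM + 0.1) for Nlrp1b (-4.65 and -4.58), as a pseudocount shrinks changes of low values. With library size only, 3 sensors, not 5, rose with Pam3 in KO. The count of sensors called in media between genotypes (1) was 0 with limma on log2(RPKM + 1) and ranged from 0 to 1 when each library was left out. Mefv was called in 27 of 31 alternatives, with adjusted p from 0.000789 to 0.0628. After Pam3 the count (0) ranged from 0 to 2, and that of the interaction (0) from 0 to 1, with the highest counts without WT_Pam3 replicate 5. The Nlrc4 call in KO was lost without a filter (adjusted p = 0.107) and without KO_media replicate 4 (0.0703) or KO_Pam3 replicate 1 (0.0647), 5 (0.0801) or 6 (0.0534). Over all genes, library size only changed the calls with Pam3 from 5859 higher and 6376 lower to 3584 and 9055 in WT, and from 5803 and 6470 to 3685 and 8935 in KO. The interaction had 25 higher and 85 lower calls over all genes, 90 and 303 with DESeq2, and 102 and 442 without WT_Pam3 replicate 5. In media the split was 277 and 161, 581 and 531 with the 2 groups alone, 658 and 616 without WT_Pam3 replicate 5, and 154 and 84 without WT_media replicate 3. After Pam3 it was 189 and 397 between genotypes, 63 and 114 with 2 groups, 352 and 826 without WT_Pam3 replicate 5, and 412 and 220 with library size only. WT_Pam3 replicate 5 is not among the media libraries and enters the media comparison only through the fit that all 24 libraries share. The cause of these changes in the counts of calls was not tested. No paired analysis was possible because the labels give no replicate numbers. Depth limits Naip1, which lies near the floor of 3 counts, and, after Pam3, Nlrp1b (33 to 43 reads) and Nlrp1a (46 to 101 reads).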
